A study of Mus musculus with 6 samples.

Results

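The genes described here are 9 phosphoinositide kinases of the mouse: Pip4k2a, Pip4k2b, Pip4k2c, Pip5k1a, Pip5k1c, Pi4ka, Pi4kb, Pi4k2a and Pikfyve. They were taken by gene symbol from a deposited table of 31115 genes, and all 9 were found there. The group was chosen by the log2 difference of Pip4k2a between the 2 conditions, one of the lowest of all tested genes, and by family for the others, so the differences of all 9 between the groups are given as a description, with no test. RNA was sequenced from 6 libraries of mouse neonatal cardiomyocytes, heart muscle cells from newborn mice, in normal culture at day 2. There were 3 libraries labelled Ad-SPTBN1, whose genotype is given as overexpression of βII spectrin (the protein encoded by Sptbn1, a part of the skeleton under the cell membrane), and 3 libraries labelled Ad-scramble. The labels do not describe the constructs, the strain, the purity of the cells or whether the libraries of a group are separate cultures. A p-value here is thus set against the spread among these 6 libraries, and that spread may come from handling alone.

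Phosphoinositides are membrane lipids made from phosphatidylinositol, whose inositol ring is phosphorylated at different positions. PI 4-kinases make PI4P, from which type I PIP kinases (PIP5K) make PI(4,5)P2, the lipid that anchors actin regulators at the plasma membrane, holds many ion channels open and is cut by phospholipase C in heart cells stimulated through G-protein-coupled receptors. Type II PIP kinases (PIP4K) make the same lipid from the scarce PI5P, and PIKfyve makes PI(3,5)P2 on endosomes and lysosomes.

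Sptbn1 went against the label. Its values in the Ad-SPTBN1 libraries were 16.08, 16.45 and 15.75 FPKM (fragments scaled by gene length and library size), against 50.83, 48.25 and 50.08 FPKM in those labelled Ad-scramble, which is 32.4% of the Ad-scramble mean. Mouse Sptbn1 RNA was thus lower in the group labelled as overexpressing it, and directions below are stated for the libraries as labelled. Exchanged labels, another kind of construct and a transgene that this gene's count does not hold cannot be told apart here. Reads recovered from the values numbered 18775304 to 19638663 per library. Cells of other types were present in both groups, so the kinase levels are not those of cardiomyocytes alone. The fibroblast list and the smooth muscle list below each summed to far more FPKM than the cardiomyocyte list in every library. Such sums are not shares of cells. The cardiomyocyte marker Actc1 averaged 46.2 ± 2.27 FPKM in Ad-SPTBN1 and 21.3 ± 0.405 FPKM in Ad-scramble libraries (SD, n = 3 each), and Tnnt2 averaged 13.8 ± 0.0743 and 10.5 ± 0.319 FPKM in the same groups. The fibroblast collagen Col1a1 lay at 2284 to 2474 FPKM in Ad-SPTBN1 and 1915 to 2216 FPKM in Ad-scramble libraries, and the smooth muscle actin Acta2 at 1586 to 1614 and 1616 to 1639 FPKM in the same groups. By limma's test (adjusted p under 0.05) 7 of 10 tested cardiomyocyte markers rose and 0 fell, and their list summed to 132.2 to 137.9 FPKM in Ad-SPTBN1, against 80.60 to 86.87 FPKM in Ad-scramble libraries. Of 12 fibroblast markers 0 rose and 7 fell (summed 4669 to 4907 against 4428 to 4753 FPKM), of 10 smooth muscle and pericyte markers 1 rose and 4 fell (1833 to 1861 against 1884 to 1906 FPKM), and of 8 epicardial markers 5 rose and 0 fell (137.7 to 139.0 against 110.4 to 114.3 FPKM). None of 8 endothelial markers (128.6 to 135.4 against 121.7 to 129.9 FPKM) and none of 3 tested macrophage markers (12.19 to 12.94 against 12.69 to 12.96 FPKM) passed. Over all tested genes 5.54% rose and 5.50% fell. The sums hold every listed marker, also those of the 15 cardiomyocyte and 8 macrophage markers that averaged less than the 1 FPKM needed for the test. No marker of any list was at 0 in every library. In bulk RNA, fewer cells of a type and less RNA per cell cannot be told apart, and the part of these markers in the results on the kinases was not tested.

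The type II PIP kinases come first. Pip4k2a, the form with the highest kinase activity in biochemical assays, phosphorylates PI5P. It measured 13.08, 11.62 and 11.70 FPKM in Ad-SPTBN1 libraries, against 21.79, 19.74 and 23.55 FPKM in Ad-scramble libraries. Every Ad-SPTBN1 library lay below every Ad-scramble library, with a wide gap between the groups. The means were 12.1 ± 0.823 and 21.7 ± 1.91 FPKM in the same groups (SD, n = 3 each), so the Ad-SPTBN1 level was 55.9% of the Ad-scramble level. The difference in log2(FPKM + 1) was -0.79 ± 0.07 (SE; 95% interval -0.95 to -0.62); the added 1 shrinks the differences of genes with low values. Without any 1 library it lay between -0.85 and -0.73. The values rest on 751 to 867 reads in Ad-SPTBN1 and 1251 to 1517 reads in Ad-scramble libraries. The spread between libraries was a CV of 6.78% in Ad-SPTBN1 and 8.78% in Ad-scramble, against 3.02% from counting alone. The gene (ENSMUSG00000026737, GRCm38 chromosome 2, 18842255 to 18998126, minus strand) overlaps no other annotated gene and shares no 50-base stretch of its exons with another gene.

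Its paralogs did not show such a difference. Pip4k2b, the form found largely in the nucleus in other cells, measured 11.08, 11.39 and 11.00 FPKM in Ad-SPTBN1, against 10.24, 10.78 and 10.14 FPKM in Ad-scramble libraries. The groups did not overlap, but by a narrow margin: the difference was 0.09 ± 0.04 on the log2 scale (95% interval 0.0 to 0.18). Pip4k2c, the form with the least kinase activity, measured 7.06, 7.42 and 6.80 FPKM in Ad-SPTBN1, against 6.71, 7.04 and 7.16 FPKM in Ad-scramble libraries. Its groups overlapped, and its difference was 0.02 ± 0.05 (95% interval -0.09 to 0.13).

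The make-up of the family differed between the groups as these values require. The 3 genes summed to 31.2, 30.4 and 29.5 FPKM in the Ad-SPTBN1 libraries, against 38.7, 37.6 and 40.9 FPKM in the Ad-scramble libraries, or 77.8% of the Ad-scramble mean. Pip4k2a held 41.9%, 38.2% and 39.7% of that sum in Ad-SPTBN1, against 56.3%, 52.6% and 57.6% in Ad-scramble libraries. It stayed the largest of the 3 in every library, but in Ad-SPTBN1 it was close to Pip4k2b, which held 36.7% ± 1.08 there and 26.6% ± 1.94 in Ad-scramble libraries. Pip4k2c held 23.4% ± 0.93 in Ad-SPTBN1 and 17.9% ± 0.771 in Ad-scramble libraries (SD, n = 3 each).

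**Figure D1:**
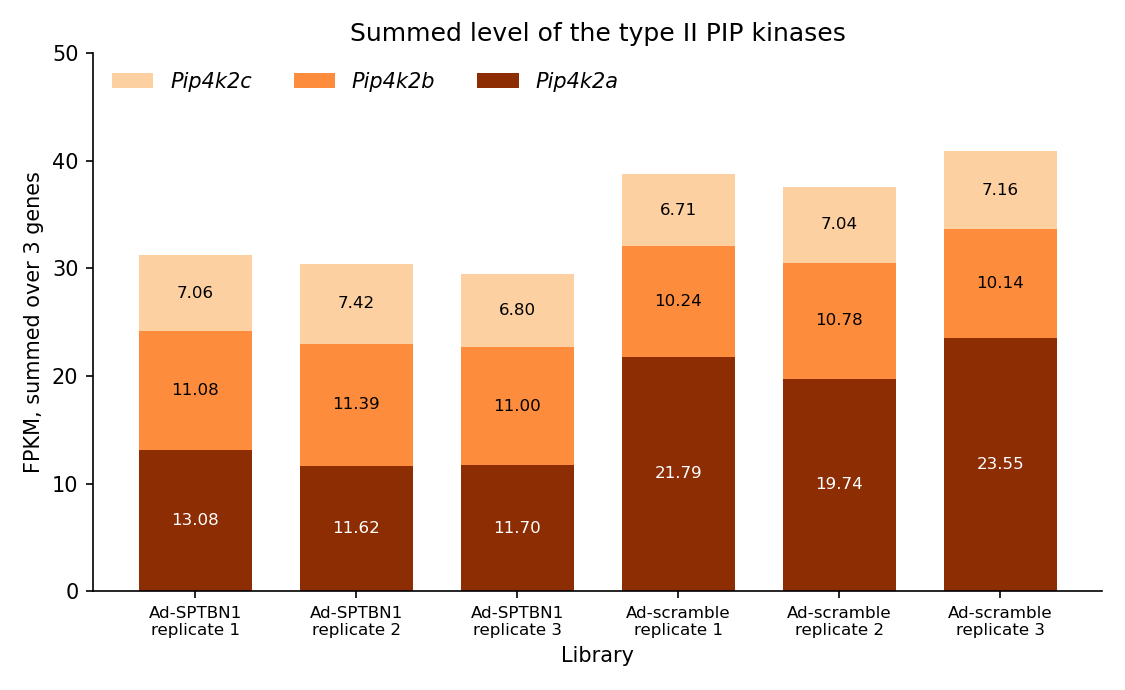
Stacked bars give the FPKM of Pip4k2a, Pip4k2b and Pip4k2c in each library, with the libraries labelled Ad-SPTBN1 on the left and the value of each gene printed in its segment. The bottom segment, Pip4k2a, is 11.62 to 13.08 FPKM in Ad-SPTBN1 and 19.74 to 23.55 FPKM in Ad-scramble libraries, while the upper segments are alike in height.

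Short words in the transcripts were compared with the difference between groups, a search chosen after the data were seen. Each 7-base word held by at least 50 genes was scored by its presence in annotated 3′ UTRs (GENCODE M21, the transcript with the longest coding sequence) with UTR length, base composition and level as covariates, over 11097 tested genes with the 9 kinases left out. Of 16028 words, GATGCAA had the score furthest towards lower values in Ad-SPTBN1 and ATGCAAA the next. They overlap as GATGCAAA. The word GTGTCAC had the score furthest towards higher values. Only the transcript's own strand was searched. Sptbn1 and Pip4k2a hold GATGCAAA once each in the coding sequence and not in the 3′ UTR. Pi4ka holds GTGTCAC once in its 3′ UTR, as does Pip4k2b, and Pip5k1a holds the shorter GATGCAA there. Coding-sequence copies of GATGCAA and GTGTCAC in Pi4ka and Pikfyve are named further on and are not shown. The 5 sites shown are the copies of GATGCAAA and the 3′ UTR copies of GATGCAA and GTGTCAC in these genes. They are written 5′ to 3′ with the word in capitals, from the GENCODE M21 transcripts on GRCm38, and each gene lies on the minus strand.
Sptbn1, coding sequence, chr11:30123918-30123947: agcggctctttGATGCAAAtaaggctgagc
Pip4k2a, coding sequence, chr2:18845904-18845933: ttactcattacGATGCAAAaaagaaagctg
Pip5k1a, 3′ UTR, chr3:95058590-95058618: gaaaaatgacaGATGCAAtataaaagtaa
Pi4ka, 3′ UTR, chr16:17280522-17280550: tgaagccttgaGTGTCACagagcaactcg
Pip4k2b, 3′ UTR, chr11:97715562-97715590: acttaggatgaGTGTCACcaaggggaagt
In Pip4k2a the word starts at base 1093 of a coding sequence of 1218 bases. A word match is a description and not a known binding site.

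The words were picked by the differences of these same genes, so the counts for the 3′ UTR restate that choice and support nothing. Over all genes scored, 244 held GATGCAAA in the 3′ UTR, 2.2% of them. Their median log2 difference was -0.086. By limma's test (adjusted p under 0.05) 61 of them (25.0%) were lower in Ad-SPTBN1. Of all 12608 tested genes, which include genes not scored, 5.50% were lower. A further 420 genes (3.78%) held GATGCAAA in the coding sequence alone, as Pip4k2a does. Their median was -0.035, and 46 of them (11.0%) were lower. The targeted gene Sptbn1 is among the 420 and among the 46. The 1st percentile of the 420 was -0.43, and Pip4k2a at -0.79 lay below it. Pip4k2a was chosen for its low difference, so that place follows from the choice and nothing is read from it. Whether the word in the coding sequence has a part in these differences was not tested. The 10433 genes with neither had a median of 0.003, and 5.21% of them were lower. For GTGTCAC, 1042 genes (9.39%) held it in the 3′ UTR, with a median of 0.055, and 185 of them (17.8%) were higher in Ad-SPTBN1, against 5.54% of all tested genes. A further 968 genes held GTGTCAC in the coding sequence alone, with a median of 0.019, and 7.33% of them were higher. The 9087 genes without it in either region had a median of -0.006, and 4.31% of them were higher.

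The members that hold a word did not all differ. Pip4k2a was lower in Ad-SPTBN1 and holds GATGCAAA in its coding sequence, and Pi4ka was higher and holds GTGTCAC in its 3′ UTR. Pip5k1a holds GATGCAA in its 3′ UTR, yet its groups overlapped, and Pip4k2b holds GTGTCAC there with a difference of 0.09. In their coding sequences Pi4ka and Pikfyve hold GATGCAA once and GTGTCAC once each. Pip4k2c, Pip5k1c, Pi4kb and Pi4k2a hold none of the words in either region. Among tested genes of the lipid's pathway described further on, 3 hold GATGCAA in the 3′ UTR, of which 1 fell (Pik3r3). In the same lists 8 hold GTGTCAC there, of which 1 rose (Cds2). Of all genes scored that hold the word there, 17.6% were lower in Ad-SPTBN1 for GATGCAA and 17.8% higher for GTGTCAC. Of all tested genes 5.50% were lower and 5.54% higher. The words were picked with these pathway genes included, so nothing is read from the counts.

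**Figure D2:**
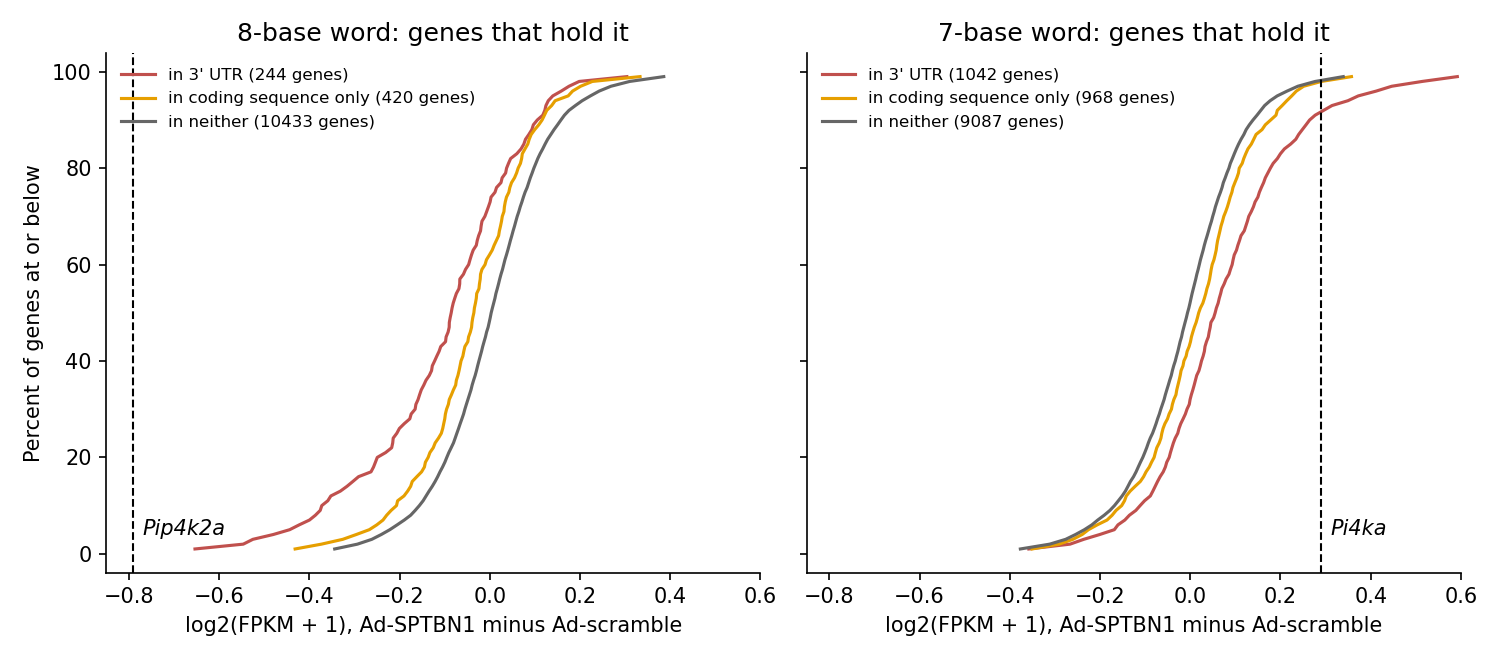
Each curve gives the percent of genes (vertical axis) at or below a log2(FPKM + 1) difference, Ad-SPTBN1 minus Ad-scramble (horizontal axis), from the 1st to the 99th percentile, for genes that hold the word GATGCAAA (left) or GTGTCAC (right) in the 3′ UTR, in the coding sequence only, or in neither. The 3′ UTR curve lies left of the others on the left side and right of them on the right side, and the dashed lines mark Pip4k2a at -0.79 and Pi4ka at 0.29. Pip4k2a was chosen for its low difference, so its place beside the curves follows from that choice.

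Of the type I kinases, which make most of the cell's PI(4,5)P2, Pip5k1a and Pip5k1c overlapped between the groups. Pip5k1a, the most abundant of the 9, measured 30.97, 28.72 and 30.41 FPKM in Ad-SPTBN1, against 30.77, 28.92 and 28.21 FPKM in Ad-scramble libraries. The difference was 0.03 ± 0.04 (95% interval -0.07 to 0.14). Pip5k1c, whose product recruits talin and clathrin adaptors to the membrane, measured 20.87, 19.68 and 18.90 FPKM in Ad-SPTBN1, against 19.73, 21.19 and 19.23 FPKM in Ad-scramble libraries. Its difference was -0.02 ± 0.05 (95% interval -0.13 to 0.1). High and low libraries of both genes occur in each group. Together they summed to 49.9 ± 1.78 FPKM in Ad-SPTBN1 and 49.3 ± 1.66 FPKM in Ad-scramble libraries (SD, n = 3 each), 101% of the Ad-scramble level. The other type I gene, Pip5k1b, lay at 0.85 to 0.91 FPKM in Ad-SPTBN1 and 0.75 to 0.82 FPKM in Ad-scramble libraries, below the mean of 1 FPKM needed for the test.

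Of the PI 4-kinases, Pi4ka, the enzyme that makes PI4P at the plasma membrane, measured 10.12, 10.02 and 9.94 FPKM in Ad-SPTBN1, against 8.36, 7.69 and 8.07 FPKM in Ad-scramble libraries. Every Ad-SPTBN1 library was above every Ad-scramble library. The means were 10.0 ± 0.0934 and 8.04 ± 0.336 FPKM in the same groups (SD, n = 3 each), so the Ad-SPTBN1 level was 125% of the Ad-scramble level. The difference was 0.29 ± 0.04 (95% interval 0.19 to 0.38), and without any 1 library it lay between 0.26 and 0.31. These values rest on 2065 to 2172 reads in Ad-SPTBN1 and 1577 to 1781 reads in Ad-scramble libraries. Pi4ka overlaps 4 annotated genes, 3 of them antisense, over 2.67% of its exon bases, and the use of strand in the counting is not stated. Of its 50-base stretches 0.75% also occur in other genes, as do 0.44% of those of Pip4k2c and 0.858% of those of Pikfyve.

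The other PI 4-kinases overlapped between the groups. Pi4kb, the enzyme of the Golgi, measured 8.11, 7.97 and 6.84 FPKM in Ad-SPTBN1, against 7.61, 7.14 and 7.11 FPKM in Ad-scramble libraries, with a difference of 0.06 ± 0.07 (95% interval -0.1 to 0.21). Its value is uncertain, since 23.1% of its exon bases lie in other annotated genes. Pi4k2a, a palmitoylated kinase of the trans-Golgi network and endosomes, measured 18.64, 17.33 and 17.98 FPKM in Ad-SPTBN1, against 17.42, 20.31 and 19.28 FPKM in Ad-scramble libraries, with a difference of -0.07 ± 0.06 (95% interval -0.21 to 0.06). The 3 PI 4-kinases described here summed to 35.7 ± 1.1 FPKM in Ad-SPTBN1 and 34.3 ± 0.889 FPKM in Ad-scramble libraries (SD, n = 3 each). Pi4k2b, a further PI 4-kinase that averaged 11.5 FPKM in Ad-SPTBN1 and 11.2 FPKM in Ad-scramble libraries, is not in that sum. Pi4ka held 28.1% ± 0.604 of that sum in Ad-SPTBN1 and 23.4% ± 1.58 in Ad-scramble libraries, and Pi4k2a 50.4% ± 1.34 and 55.3% ± 2.87 in the same groups.

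Pikfyve, which makes PI(3,5)P2, was the least abundant of the 9. It measured 1.85, 1.72 and 1.94 FPKM in Ad-SPTBN1, against 1.79, 1.81 and 1.77 FPKM in Ad-scramble libraries, and the groups overlapped. The difference was 0.02 ± 0.06 (95% interval -0.13 to 0.17), on 624 to 687 reads in Ad-SPTBN1 and 630 to 653 reads in Ad-scramble libraries.

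**Figure D3:**
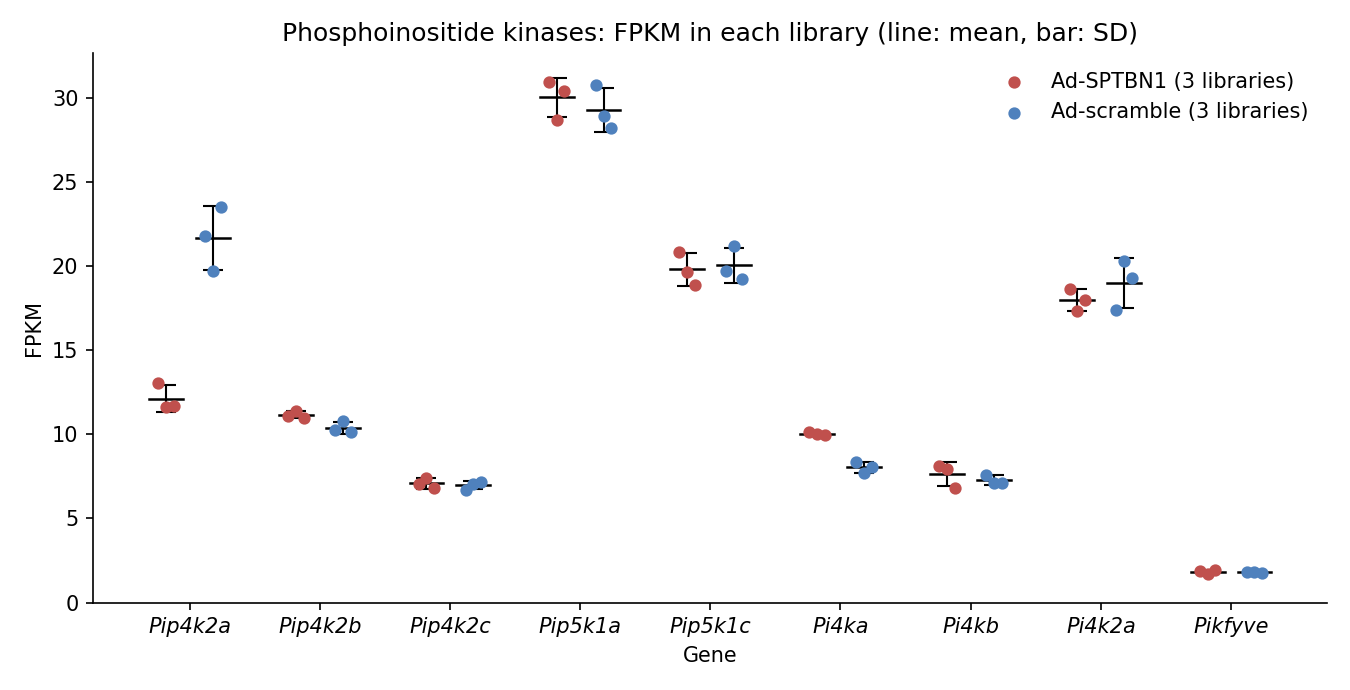
Points give the FPKM (vertical axis) of each of the 9 kinases in each library, with Ad-SPTBN1 left of Ad-scramble, the line giving the mean and the bar the SD of 3 libraries. Pip4k2a and Pi4ka are the genes whose groups stand clearly apart, Pip4k2a at 11.62 to 13.08 FPKM in Ad-SPTBN1 against 19.74 to 23.55 FPKM in Ad-scramble libraries and Pi4ka at 9.94 to 10.12 against 7.69 to 8.36 FPKM.

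All 9 passed the filter of a mean of at least 1 FPKM. In the fit over all 12608 tested genes, 1 of them passed the threshold as higher (Pi4ka), 1 as lower (Pip4k2a), and 7 did not pass. Over all tested genes 11.0% passed. Since the group was chosen for this contrast, nothing is read from that count. Groups without overlap were found for 3 of the 9 (Pip4k2a, Pip4k2b and Pi4ka), against 32.3% of all tested genes; 2 of them lay higher in Ad-SPTBN1 and 1 lower, against 16.5% and 15.8% of all tested genes. The median difference of the 9 was 0.02, and that of all tested genes 0.0019; 7 of the 9 differed by less than 0.1 on the log2 scale, as did 58.2% of all tested genes. The 9 genes together summed to 118 ± 3.53 FPKM in Ad-SPTBN1 and 125 ± 0.117 FPKM in Ad-scramble libraries (SD, n = 3 each). Without Pip4k2a the other 8 summed to 106 ± 2.71 FPKM in Ad-SPTBN1 and 103 ± 1.97 FPKM in Ad-scramble libraries.

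**Figure D4:**
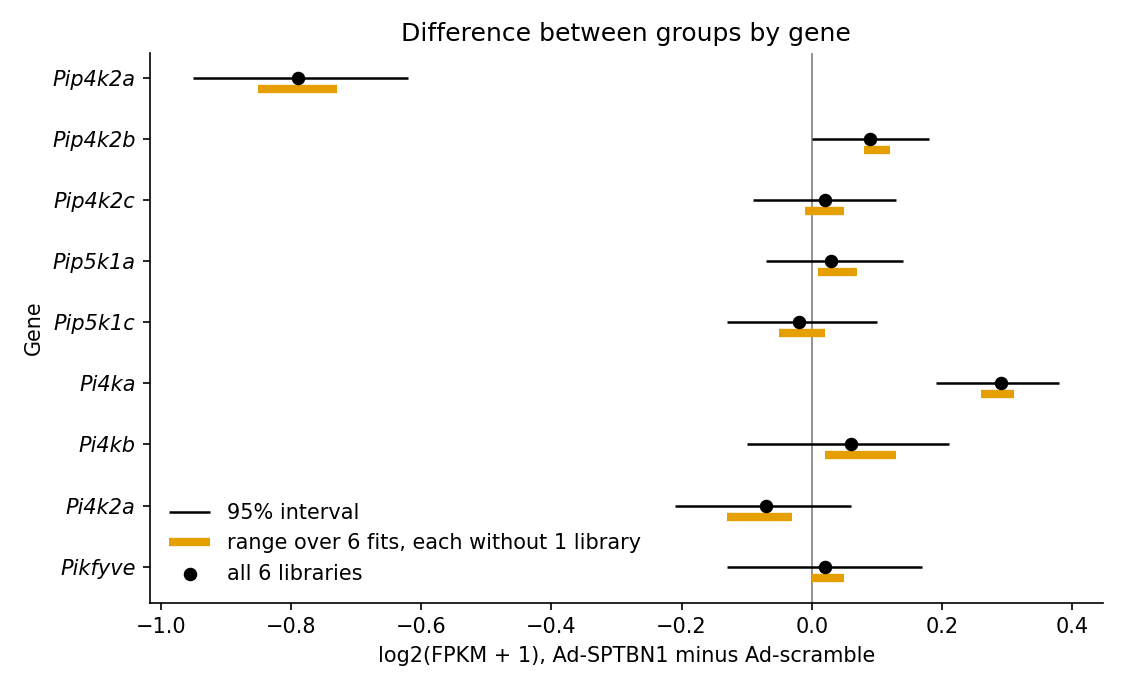
For each kinase the point gives the log2(FPKM + 1) difference, Ad-SPTBN1 minus Ad-scramble (horizontal axis), the thin line its 95% interval and the thick bar the range over 6 fits that each leave out 1 library. Pip4k2a lies at -0.79 and Pi4ka at 0.29, and the other 7 lie between -0.07 and 0.09.

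The order of levels changed at 1 gene. In Ad-SPTBN1 libraries it ran Pip5k1a, Pip5k1c, Pi4k2a, Pip4k2a, Pip4k2b, Pi4ka, Pi4kb, Pip4k2c and Pikfyve, and of the neighbours in that order Pi4kb and Pip4k2c alone overlapped. In Ad-scramble libraries Pip4k2a stood at rank 2, where it overlapped Pip5k1c, as did Pip5k1c and Pi4k2a, and Pi4kb and Pip4k2c. Pip4k2a thus stood at rank 4 in Ad-SPTBN1 and at rank 2 in Ad-scramble libraries, while the other 8 kept their order among themselves.

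Pip4k2a was also placed among all genes. Of the tested genes, 13 had a lower log2 difference. By their names 10 of these are predicted genes, clones or pseudogenes, and the other 3 are Sptbn1, the small nucleolar RNA Snora62 and the microRNA gene Mir8099-2; among the 3, Sptbn1 alone had a mean of at least 5 FPKM. The nearest tested genes on chromosome 2 did not pass the test. Bmi1, a Polycomb subunit 155.6 kb away on the side of lower coordinates, averaged 13.4 ± 0.323 FPKM in Ad-SPTBN1 and 14.3 ± 0.637 FPKM in Ad-scramble libraries (SD, n = 3 each; limma adjusted p = 0.255). Commd3, 166.0 kb away on that side, had a difference of -0.10 (limma adjusted p = 0.303). On the other side 4930426L09Rik, 0.2 kb away, had a difference of 0.14 (limma adjusted p = 0.25) and the deubiquitinase gene Otud1, 659.6 kb away, one of -0.02 (limma adjusted p = 0.904).

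The 8 genes with the most similar profile were found by the distance between log2(FPKM + 1) values over the 6 libraries, each gene centred on its own mean. Genes had to average at least 5 FPKM, and predicted genes, clones and pseudogenes were left out. In order of distance they were Chmp2b, Vegfd, Cav2, Fgl2, Chsy3, Mgp, Fam120a and Fxyd6, with distances of 0.201 to 0.315. The 6 points fall into the groups compared, so the likeness follows mainly from the difference between the groups. Chmp2b, an ESCRT-III subunit, averaged 16.1 ± 1.34 FPKM in Ad-SPTBN1 and 26.6 ± 1.55 FPKM in Ad-scramble libraries (SD, n = 3 each). Fxyd6, a regulator of the sodium pump, averaged 16.5 ± 0.827 and 28.6 ± 0.681 FPKM in the same groups. The lymphatic growth factor gene Vegfd averaged 7.58 ± 0.284 and 12.3 ± 0.724 FPKM, and the caveolin gene Cav2 6.66 ± 0.660 and 11.0 ± 0.734 FPKM in the same groups. Mgp, a matrix inhibitor of calcification, lay at 224.9 to 238.3 FPKM in Ad-SPTBN1 and 330.6 to 356.2 FPKM in Ad-scramble libraries. The differences of the 8 lay between -0.76 and -0.59, and in none of them did the groups overlap. Both follow largely from the choice by likeness to Pip4k2a, and 32.3% of all tested genes also had groups without overlap. Of the 8, Chmp2b, Fam120a and Fxyd6 hold GATGCAAA in the 3′ UTR, Cav2 and Chsy3 hold the shorter GATGCAA there, and Vegfd, Fgl2 and Mgp hold neither in the 3′ UTR or the coding sequence. Of all genes scored 5.88% hold GATGCAA in the 3′ UTR. The word was picked by lower values of genes that include these 8, and the 8 by a profile like that of Pip4k2a. Nothing is thus read from that comparison. Chmp2b and Chsy3, both lower in Ad-SPTBN1, also hold GTGTCAC in the 3′ UTR, the word with the higher scores.

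The genes that act around these kinases were taken from 6 lists written from textbook roles. Of 85 such genes found, 62 had a mean of at least 1 FPKM, and 5 of them rose and 3 fell by limma's test with Benjamini-Hochberg adjustment over all tested genes. That is 12.9% of the 62, against 11.0% of all tested genes, and the median log2 difference was 0.003. The share is close to that of all genes. The changes that held without any 1 library were in Ttc7, Inppl1 and Pitpnm2.

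Among the partner proteins of PI 4-kinases and PIKfyve, 1 of 11 rose and 0 fell, with a median of 0.054. That is 9.09% of the list, against 11.0% of all tested genes passing in either direction. The one was Ttc7, which with Efr3 and Fam126 proteins holds Pi4ka at the plasma membrane. It measured 6.95, 7.19 and 6.69 FPKM in Ad-SPTBN1, against 5.38, 5.76 and 5.58 FPKM in Ad-scramble libraries, a difference of 0.27 ± 0.05 (limma adjusted p = 0.0129). Without any 1 library the adjusted p was 0.028 to 0.0492. The Ad-SPTBN1 level was 125% of the Ad-scramble level, as it was for Pi4ka. Fam126a averaged 5.38 ± 0.116 FPKM in Ad-SPTBN1 and 4.64 ± 0.296 FPKM in Ad-scramble libraries (SD, n = 3 each), a difference of 0.18 ± 0.05 that did not pass (limma adjusted p = 0.0759). Fam126b averaged 4.33 ± 0.114 and 3.54 ± 0.376 FPKM in the same groups, a difference of 0.23 ± 0.07 that did not pass either (limma adjusted p = 0.0706). The remaining partners of Pi4ka on the list, Ttc7b, Efr3a, Efr3b and Tmem150a, had differences of -0.08 to 0.08 and limma adjusted p of 0.254 to 0.955. The partners of Pi4ka other than Ttc7 are named after their values were seen.

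Among genes that use or remove the lipids, 16.7% of PI3K subunits, 11.1% of phosphatases and 14.3% of phospholipase C genes passed, against 11.0% of all tested genes. Of 12 PI3K subunits, 1 rose (Atg14, the autophagy subunit of the Vps34 complex) and 1 fell (Pik3r3, a regulatory subunit of class I), with a median of -0.008. Atg14 measured 7.36, 7.23 and 7.81 FPKM in Ad-SPTBN1, against 6.21, 6.13 and 6.77 FPKM in Ad-scramble libraries (difference 0.20 ± 0.05, limma adjusted p = 0.0483). Pik3r3 measured 2.60, 2.88 and 2.60 FPKM in Ad-SPTBN1, against 3.38, 3.42 and 3.55 FPKM in Ad-scramble libraries (difference -0.27 ± 0.06, limma adjusted p = 0.0255). Neither pair of groups overlapped, as was so for 32.3% of all tested genes. The call on Atg14 was kept only without Ad-scramble replicate 3 (adjusted p 0.0447 to 0.14 over the 6 fits without 1 library). That on Pik3r3 was kept only without Ad-SPTBN1 replicate 2 (0.0412 to 0.0852).

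Of 18 phosphoinositide phosphatases 1 rose and 1 fell, with a median of -0.019. Inppl1, the 5-phosphatase SHIP2, measured 33.52, 33.41 and 33.22 FPKM in Ad-SPTBN1, against 28.74, 27.67 and 29.55 FPKM in Ad-scramble libraries (difference 0.21 ± 0.03, limma adjusted p = 0.00866). Its Ad-SPTBN1 libraries lay close together and above all Ad-scramble libraries, and 32.3% of all tested genes also had groups without overlap. Synj2, a synaptojanin that removes phosphate from PI(4,5)P2, measured 5.55, 5.46 and 5.45 FPKM in Ad-SPTBN1, against 6.58, 6.09 and 6.24 FPKM in Ad-scramble libraries (difference -0.17 ± 0.04, limma adjusted p = 0.0485). That call did not survive leaving out any single library (adjusted p 0.0675 to 0.137).

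Of 7 phospholipase C genes 0 rose and 1 fell, and the median was -0.168. Plcb4, an isoform driven by Gq-coupled receptors, measured 4.12, 4.35 and 3.98 FPKM in Ad-SPTBN1, against 5.12, 4.94 and 5.88 FPKM in Ad-scramble libraries (difference -0.29 ± 0.07, limma adjusted p = 0.0344). The call was kept only without Ad-scramble replicate 2 (adjusted p 0.0466 to 0.106 over the 6 fits without 1 library).

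Of 13 genes of phosphatidylinositol synthesis, transfer and diacylglycerol recycling 2 rose and 0 fell, with a median of 0.055. These 2 are 15.4% of the 13, against 11.0% of all tested genes passing in either direction. Pitpnm2, a membrane-associated phosphatidylinositol transfer protein, measured 4.22, 4.17 and 4.02 FPKM in Ad-SPTBN1, against 3.07, 2.99 and 2.96 FPKM in Ad-scramble libraries (difference 0.36 ± 0.05, limma adjusted p = 0.00558). Cds2, which makes the CDP-diacylglycerol from which phosphatidylinositol is built, measured 10.19, 9.94 and 10.11 FPKM in Ad-SPTBN1, against 8.84, 9.30 and 8.67 FPKM in Ad-scramble libraries (difference 0.16 ± 0.04, limma adjusted p = 0.0456). The groups of both genes stood apart, as was so for 32.3% of all tested genes. The call on Cds2 was kept only without Ad-scramble replicate 2 (adjusted p 0.0484 to 0.124 over the 6 fits without 1 library). Pi4k2b, the one tested gene among the kinases of these families outside the 9, averaged 11.5 ± 0.243 FPKM in Ad-SPTBN1 and 11.2 ± 0.207 FPKM in Ad-scramble libraries (SD, n = 3 each) and did not pass (difference 0.04 ± 0.04, limma adjusted p = 0.550).

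**Figure D5:**
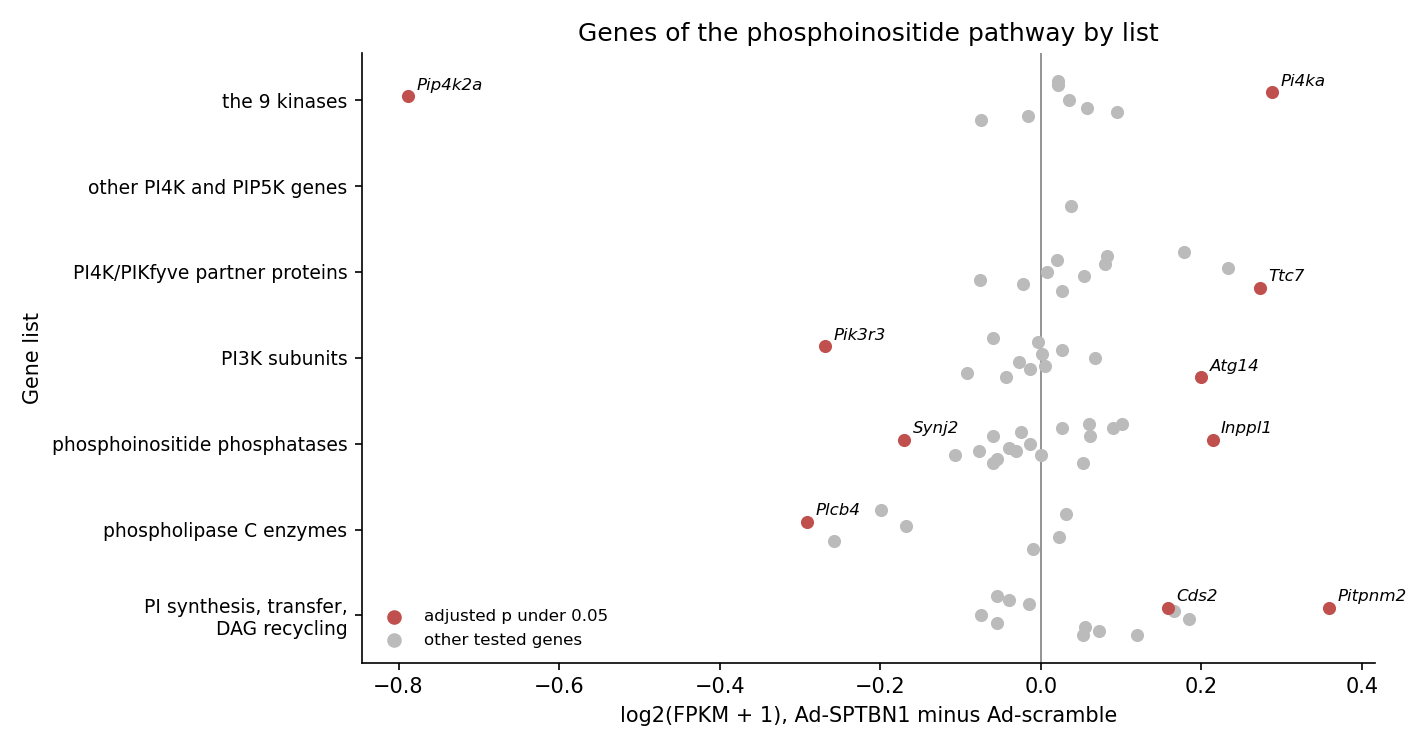
Each point is a tested gene at its log2(FPKM + 1) difference, Ad-SPTBN1 minus Ad-scramble (horizontal axis), in the row of its list; red points had a limma adjusted p under 0.05. The 9 kinases span -0.79 (Pip4k2a) to 0.29 (Pi4ka), and the 62 genes of the other lists lie between Plcb4 at -0.29 and Pitpnm2 at 0.36.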

How the data were processed

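RNA-seq of 6 libraries (3 Ad-SPTBN1, 3 Ad-scramble) was analysed. The authors deposited 1 table of FPKM values. The build is GRCm38 (mm10), per the submitters' processing notes. For the aligner, the counter, the annotation and strand use, nothing is given in the sources used here. Columns were matched to libraries through the sample number in the labels. No column of other samples was used.

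Values were tested as log2(FPKM + 1), without rescaling, by limma 3.58.1 in R 4.3.3 with a variance trend and Benjamini-Hochberg adjustment over the 12608 genes averaging 1 FPKM or more (threshold 0.05). Reads were recovered from FPKM and GENCODE M21 exon lengths: 95.5% to 95.7% of values were whole within 0.1 reads, and the totals by which the values were scaled came to 18223040 to 19062987, below the recovered reads in genes in each library, so neither is the sequencing depth itself. What makes them differ was not tested. Read ranges cover counting error only. No columns were identical, and pairs within a group differed by more than counting noise (chi-square per gene 2.52 to 3.54).

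The members, lists, words and tests were chosen with earlier results of these data known. Genes were named by this rule: the 9 kinases, Sptbn1, up to 4 called genes per pathway list or else its most abundant tested genes, the 8 nearest profiles and the 2 nearest tested genes on each side of Pip4k2a, and 4 identity markers. Of the listed pathway symbols 85 of 88 were found. Alternatives were other pseudocounts, filters, rescaling, no trend, library weights, the replicate block, voom on recovered reads and leaving out each library.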

Additional observations from a re-analysis of the deposited data

How the results depend on the processing

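Pip4k2a and Pi4ka kept their direction under every alternative run. Pip4k2a was chosen for its low difference in these same libraries, so its kept direction follows largely from that choice and nothing is read from it. For both genes the alternatives reuse the same libraries, so they show the dependence on processing only. The difference of Pip4k2a ranged from -0.85 to -0.64 and that of Pi4ka from 0.21 to 0.32 over all of them; both moved by more than the spread between libraries with a pseudocount of 5 alone, to -0.64 and 0.21. The number of genes called over the table was 1391. It was 665 with no minimum level, 730 with the replicate number as a block, 2146 with voom on recovered reads, and 622 to 864 without 1 library; under the other alternatives it was 1077 to 1502. The number of pathway genes called was 8. It was 3 with no minimum level, 3 with the replicate block and 3 to 5 without 1 library, and 12 with voom. Ttc7 and Inppl1 kept their calls under every alternative, as did Pitpnm2 except with a minimum mean of 5 FPKM, which leaves it out; Pik3r3, Atg14, Synj2, Plcb4 and Cds2 lost theirs with no minimum level and with the block. Of the 8 calls, 62.5% were higher; the share was 100% with no minimum level and with the block. The cause of these shifts was not tested. Replicate numbers share only a number: same-numbered libraries did not deviate together (r of 0.00586, -0.03375 and 0.01040). Rescaling shifted the median of a library by at most 0.00507 on the log2 scale. With 3 libraries per group, a gene that did not pass may still differ by any amount within its printed interval.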
